A study of Homo sapiens with 24 samples.

Results

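The PIM kinases are a family of serine/threonine kinases with 3 members, PIM1, PIM2 and PIM3, and the members were taken as every array probe annotated with one of these symbols. Of the 47231 probes on the array, 2 carried such a symbol, and these stood for 2 of the 18811 named genes. PIM1 was read by the probe ILMN_1815023 (transcript NM_002648) and PIM3 by the probe ILMN_1789781 (transcript NM_001001852). PIM2 was not analysed here. The family was selected on its measured levels and its changes with hypoxia, IGF1 and siIGF1R in these same arrays, so the levels and changes of PIM1 and PIM3 below are a description and carry no p-values.

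The arrays were Illumina expression BeadChips, on which each gene is read by the brightness of biotin-labelled RNA bound to beads, and 300 ng of total RNA was labelled for each of the 24 arrays. The 8 groups held 3 arrays each, lettered A, B and C, and each of the 2 human melanoma lines lay on a chip of its own. WM35 cells spent 24 h in hypoxia (1% oxygen) or normoxia (21% oxygen), and at each oxygen level the cells either received recombinant human IGF1 at 100 ng/mL for the final 6 h or were left without it as controls. Mel-624 cells were transfected with an siRNA pool against the IGF1 receptor gene IGF1R (siIGF1R) or with a pool without a target (siControl), and were then kept for 3 days in hypoxia or in normoxia, so every Mel-624 group had been transfected and no WM35 group had. Both lines were maintained with 5% fetal bovine serum, per the labels' protocols. The labels do not say whether the 3 arrays of a group came from separate cultures, so the spread between them may be technical.

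Unlike most kinases, PIM kinases need no phosphorylation by another kinase to become active, and their activity follows how much of the protein a cell holds. That amount is set by transcription, classically downstream of cytokine receptors, JAK kinases and STAT factors, and by the turnover of the mRNA and the protein, which the HSP90 chaperone slows. PIM1 was first found as a site of proviral insertion in mouse lymphomas, and its targets, many of them shared with AKT, act in survival (BAD), the cell cycle (CDKN1B, CDC25A) and translation (EIF4B). Both PIM1 and PIM3 have been studied in solid tumours, and hypoxia has been reported to raise PIM1 in other tumour lines.

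The stretches of DNA just before the starts of PIM1 and PIM3 are shown because the changes below are changes in mRNA. They are the 250 bases before each gene's start in RefSeq (build GRCh38.p14), at chr6:37169902-37170151 on the plus strand for PIM1 and at chr22:49960522-49960771 on the plus strand for PIM3. Capitals mark the GC box GGGCGG, the letters bound by SP1-type factors, or its reverse complement CCGCCC.
PIM1 promoter: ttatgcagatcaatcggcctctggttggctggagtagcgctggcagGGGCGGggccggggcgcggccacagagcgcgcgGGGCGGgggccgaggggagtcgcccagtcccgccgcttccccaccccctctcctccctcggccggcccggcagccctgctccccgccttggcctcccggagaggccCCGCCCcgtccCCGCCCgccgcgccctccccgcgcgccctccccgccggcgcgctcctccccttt
PIM3 promoter: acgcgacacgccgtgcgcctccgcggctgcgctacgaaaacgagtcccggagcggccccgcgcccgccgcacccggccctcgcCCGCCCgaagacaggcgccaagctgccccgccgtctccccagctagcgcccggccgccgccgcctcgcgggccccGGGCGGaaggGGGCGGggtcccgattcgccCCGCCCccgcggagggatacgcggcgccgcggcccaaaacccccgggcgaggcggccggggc

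Both promoters were rich in G and C, at 79.6% for PIM1 and 82% for PIM3, against a median of 58% over 35116 promoters of the same length. Each held 4 copies of GGGCGG counting both strands, from 204 to 54 bases before the start in PIM1 and from 167 to 62 bases before it in PIM3, and 42.64% of all the promoters held at least 1 copy. The core letters of the hypoxia response element, searched as ACGTG on both strands, occurred in neither window, and 18.51% of all promoters held them. The variant GCGTG occurred once in the PIM3 window, on the minus strand 244 bases before the start, and not in the PIM1 window, against 32.22% of all promoters. The STAT motif TTCNNNGAA occurred in neither window and in 6.567% of all promoters. These matches describe the letters of the windows only.

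Between 13948 and 15987 of the 47231 probes were detected on each array, where detected means a deposited detection p below 0.01. Replicate arrays correlated at r = 0.987 to r = 0.995 over genes. The mean signal over all probes was 317 to 341 on the WM35 normoxia control arrays and 248 to 268 on the other WM35 arrays, before normalization. Of the WM35 arrays, hypoxia control A and normoxia control C lay farthest from zero on the axis that carried 31.3% of the spread within groups, and values of PIM1 without both are given below. Of 7 melanocyte markers with a probe, 6 were detected on all Mel-624 arrays, while in WM35 only SOX10 was, and PMEL, MLANA, TYR, TYRP1 and S100B were detected on no WM35 array. Of 7 lymphoid and myeloid markers with a probe, CD68 was detected on all arrays of both lines and CD79A on all Mel-624 arrays, while PTPRC, CD3E and LYZ were detected on no array of either line. Of 5 fibroblast markers, DCN and LUM were detected on all Mel-624 arrays and none on all WM35 arrays, and all 4 keratinocyte and epithelial markers were detected on no array. The part of these markers in the results below was not tested. IGF1R was lower with siIGF1R by a log2 change of -1.84 ± 0.18 (SE) in hypoxia and -0.81 ± 0.18 in normoxia, with limma adjusted p-values of 2.47e-05 and 0.00992. Hypoxia changed the hypoxia marker NDRG1 by 1.58 ± 0.10 in Mel-624 siControl cells and by 1.89 ± 0.11 in WM35 control cells, with limma adjusted p-values of 1.11e-07 and 9.95e-08.

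PIM1 was detected on all 12 arrays of each line. PIM3 was detected on 10 of 12 Mel-624 arrays and on 1 of 12 WM35 arrays. The lowest signal of any detected probe lay between 26.3 and 41.7 on the Mel-624 arrays and between 21.0 and 29.9 on the WM35 arrays.

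In Mel-624 cells PIM1 was among the genes with the largest rise in hypoxia, with and without siIGF1R. Its normalized log2 signal was 9.88, 9.89 and 10.02 on the hypoxia siControl arrays A, B and C, against 6.94, 7.18 and 7.08 on the normoxia siControl arrays. The lowest hypoxic array thus stood far above the highest normoxic one. The share of all genes whose arrays separate without overlap is not given here, for this or the other comparisons. Before normalization the same probe read 867, 752 and 930 in hypoxia, against 120, 130 and 135 in normoxia, so the gap was already there in the deposited signals. The group means were 9.93 ± 0.07 in hypoxia and 7.06 ± 0.12 in normoxia (SD, n = 3 each). The log2 change was 2.87 ± 0.12 (SE), a 7.29-fold difference.

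With siIGF1R the same step was seen. PIM1 read 10.08, 10.04 and 9.82 on the hypoxia siIGF1R arrays, against 6.93, 6.76 and 7.14 on the normoxia siIGF1R arrays, and the groups did not overlap. The deposited signals were 1323, 957 and 758 in hypoxia, against 127, 92.8 and 141 in normoxia. The group means were 9.98 ± 0.14 in hypoxia and 6.94 ± 0.19 in normoxia (SD, n = 3 each), a log2 change of 3.04 ± 0.12 (SE) or 8.21-fold. Ranked by rise over the 9292 genes tested in Mel-624, PIM1 was number 1 in siIGF1R cells and number 6 in siControl cells. Over 21 alternative settings of each comparison its rank ran from 1 to 13 in siIGF1R cells and from 4 to 25 in siControl cells.

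**Figure D1:**
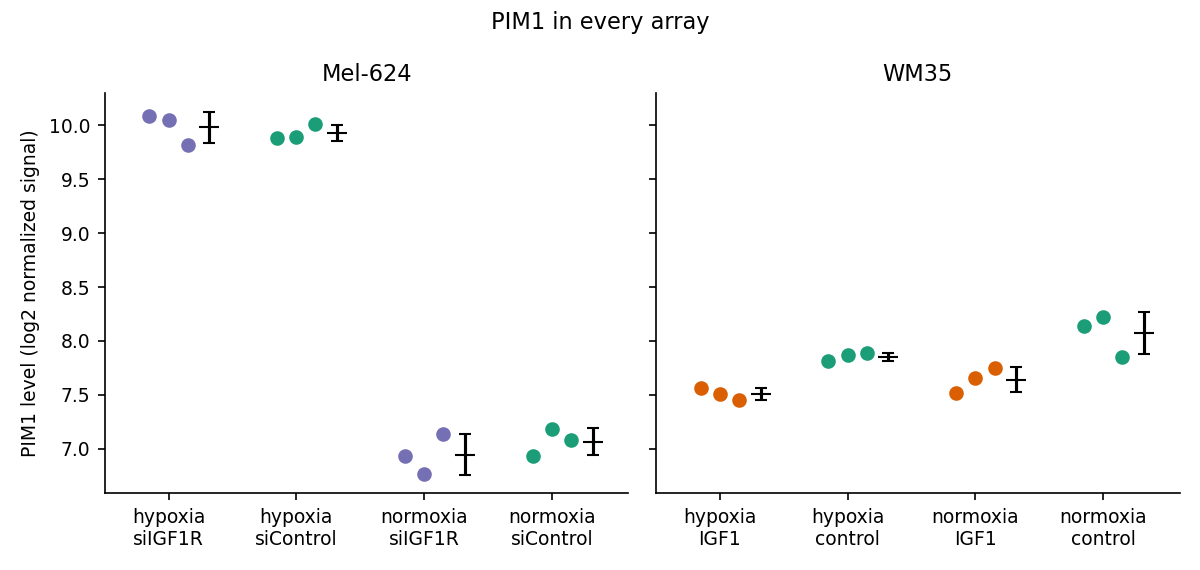
PIM1 level (log2 normalized signal) on each of the 24 arrays, in Mel-624 (left) and WM35 (right). Points are arrays A, B and C from left to right, and the bar beside them is the group mean ± SD of 3 arrays. The 6 hypoxic Mel-624 arrays lie between 9.82 and 10.08, above the 6 normoxic ones at 6.76 to 7.18, while the WM35 arrays lie between 7.45 and 8.23 and the IGF1 groups sit below the controls at the same oxygen level.

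The siIGF1R and siControl arrays overlapped in PIM1 at both oxygen levels. In hypoxia the 10.08, 10.04 and 9.82 of the siIGF1R arrays overlapped the 9.88, 9.89 and 10.02 of the siControl arrays, and the log2 change was 0.05 ± 0.12. In normoxia the 6.93, 6.76 and 7.14 of the siIGF1R arrays overlapped the 6.94, 7.18 and 7.08 of the siControl arrays, and the log2 change was -0.12 ± 0.12. Averaged over both oxygen levels the siIGF1R change of PIM1 was -0.03 ± 0.08. The siIGF1R change in hypoxia minus that in normoxia was 0.17 ± 0.16. On the same arrays IGF1R itself was lower by the amounts given above.

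PIM3, a close relative of PIM1 that also acts as a survival kinase, was at the edge of detection in Mel-624. Its deposited signal was 45.4, 44.2 and 46.8 on the hypoxia siControl arrays, against 51.5, 35.2 and 21.5 on the normoxia siControl arrays. Only array A of the normoxia siControl group was detected, so that group's mean rests in part on signals that could not be told from background. On these unnormalized signals the groups overlapped, because normoxia array A was brighter than all the hypoxic arrays.

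After normalization the order was different. The log2 level of PIM3 was 6.03, 6.17 and 6.09 on the hypoxia siControl arrays, against 5.94, 5.69 and 5.20 on the normoxia siControl arrays, without overlap. In this comparison 23.2% of all genes were called higher and 28.4% lower, and the share whose arrays separate is not given. The log2 change of PIM3 was 0.49 ± 0.15 (SE), or 1.40-fold. It dropped to 0.28 when normoxia siControl array C, the dimmest of the group, was left out, and to 0.36 with the deposited normalized values, and in neither case was it called. Leaving out hypoxia siControl array B, which gave 0.45, also ended the call.

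With siIGF1R, PIM3 stood at 6.31, 6.17 and 5.98 in hypoxia, against 5.84, 5.94 and 5.92 in normoxia, without overlap but with the nearest arrays close together. The deposited signals behind these levels were 77.5, 50.8 and 39.8 in hypoxia, against 48.2, 45.1 and 47.7 in normoxia, and these overlapped. The log2 change with hypoxia was 0.26 ± 0.15. The change with siIGF1R was 0.06 ± 0.15 in hypoxia and 0.29 ± 0.15 in normoxia, and in both cases the siIGF1R and siControl arrays overlapped. The difference between those changes was -0.23 ± 0.22, and averaged over both oxygen levels the change with siIGF1R was 0.18 ± 0.11.

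**Figure D2:**
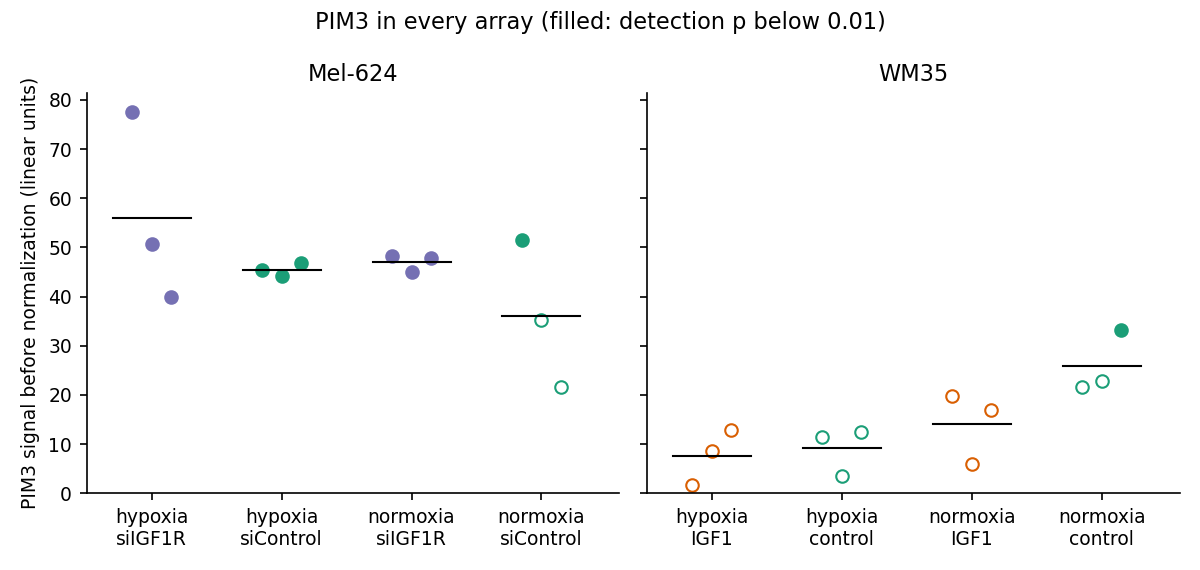
PIM3 signal before normalization (linear units) on each of the 24 arrays, in Mel-624 (left) and WM35 (right). Filled points are arrays with a detection p below 0.01, open points are not detected, and the line is the group mean of 3 arrays. In Mel-624 10 of 12 arrays are detected and the signals lie between 21.5 and 77.5, against 1 of 12 arrays and 1.56 to 33.3 in WM35.

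Taking a call to mean a limma p below 0.05 after Benjamini-Hochberg adjustment over all genes of a comparison, 2 of the 2 measured members were called higher in Mel-624 hypoxia with siControl, where 23.2% of all genes were called higher and 28.4% lower. With siIGF1R, 1 of 2 was called higher in hypoxia (PIM1), where 22.7% of genes were called higher and 27.3% lower. None of the 2 was called for siIGF1R in hypoxia, where 13.1% of genes were called higher and 12.7% lower, or in normoxia, where the shares were 8.49% and 7.47%. Neither was called for the difference between these changes, where the shares were 0.226% and 0.592%, or for siIGF1R averaged over both oxygen levels, where they were 18.1% and 16.6%. Since these changes were known when the members were picked, the calls describe them and are not evidence about the family. The hypoxia comparisons with siIGF1R and siControl share no arrays, but each shares its arrays with the siIGF1R comparisons.

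In WM35 cells the mean PIM1 level was lower with added IGF1 at both oxygen levels, by a smaller amount than the change seen with hypoxia in Mel-624. PIM1 was not called at either oxygen level alone. In hypoxia it read 7.56, 7.51 and 7.45 on the IGF1 arrays, against 7.81, 7.87 and 7.88 on the control arrays. All 3 IGF1 arrays lay below all 3 control arrays. The share of all genes whose arrays separate in this way is not given here, for this or the other comparisons. The log2 change was -0.35 ± 0.11 (SE). Signals before normalization were 153, 141 and 150 with IGF1, against 175, 204 and 214 in controls, also without overlap.

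In normoxia PIM1 read 7.52, 7.66 and 7.75 on the IGF1 arrays, against 8.14, 8.23 and 7.85 on the control arrays. Again the groups did not overlap, and the nearest arrays were IGF1 array C and control array C. The log2 change was -0.43 ± 0.11 (SE). The signals before normalization were 162, 166 and 199 with IGF1, against 341, 350 and 261 in controls, a wider gap than on the normalized scale. The control arrays of this comparison are those with the brighter mean signal over all probes given above, a difference that normalization takes out, and what is left of it in PIM1 was not tested.

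Averaged over both oxygen levels, a comparison added after the data were seen, PIM1 changed with IGF1 by -0.39 ± 0.08, the 307th largest fall of 9569 genes. It was called there, and was also called in all 21 alternatives, with changes between -0.45 and -0.34. The alternatives reuse the same arrays, and PIM1 was picked with its IGF1 changes known, so these calls are a description. Neither oxygen level alone gave a call. In normoxia PIM1 became called without normoxia control array C (-0.54), and in hypoxia it became called without that same array through the shared estimate of spread, with the change itself at -0.35. Without both hypoxia control A and normoxia control C the IGF1 change was -0.37 in hypoxia and -0.54 in normoxia, both called. Each of these arrays held the lowest PIM1 level of its control group, so leaving it out could only deepen the fall. Hypoxia IGF1 array C, nearly as far out on the axis of spread, was kept in this fit. The IGF1 change in hypoxia minus that in normoxia was 0.08 ± 0.15.

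Hypoxia left PIM1 in WM35 with overlapping arrays. Without IGF1 the 7.81, 7.87 and 7.88 of the hypoxia control arrays overlapped the 8.14, 8.23 and 7.85 of the normoxia control arrays through normoxia array C, and the log2 change was -0.22 ± 0.11. Without that array the change was -0.33 and was called, and without it and hypoxia control array A the change was -0.31 and was not called. With IGF1 the 7.56, 7.51 and 7.45 in hypoxia overlapped the 7.52, 7.66 and 7.75 in normoxia, and the log2 change was -0.13 ± 0.11.

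PIM3 gave no usable level in WM35. Its signal was 1.56, 8.59 and 12.8 on the hypoxia IGF1 arrays, and 11.5, 3.47 and 12.4 on the hypoxia control arrays. It was 19.8, 5.85 and 16.9 on the normoxia IGF1 arrays and 21.6, 22.9 and 33.3 on the normoxia control arrays. The single detected array was normoxia control C, with a detection p of 0.0052, and the others had a detection p between 0.0195 and 0.387. PIM3 was therefore not tested in WM35, and a signal not well above background does not show that the mRNA was lacking.

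PIM1, the single member tested in WM35, was not called for added IGF1 in hypoxia, where 4.5% of genes were called higher and 4.56% lower, or in normoxia, where 0.69% were called higher and 0.888% lower. It was called lower for IGF1 averaged over both oxygen levels, where 7.57% of genes were called higher and 7.93% lower. It was not called for hypoxia without IGF1, where 9.98% of genes were called higher and 10.7% lower, or for hypoxia with IGF1, where the shares were 8.19% and 7.36%. For the difference between the IGF1 changes, where 0.0105% and 0.0418% of genes were called, it was not called either. In RNA from whole cultures, a lower level per cell and fewer cells expressing the gene cannot be told apart.

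**Figure D3:**
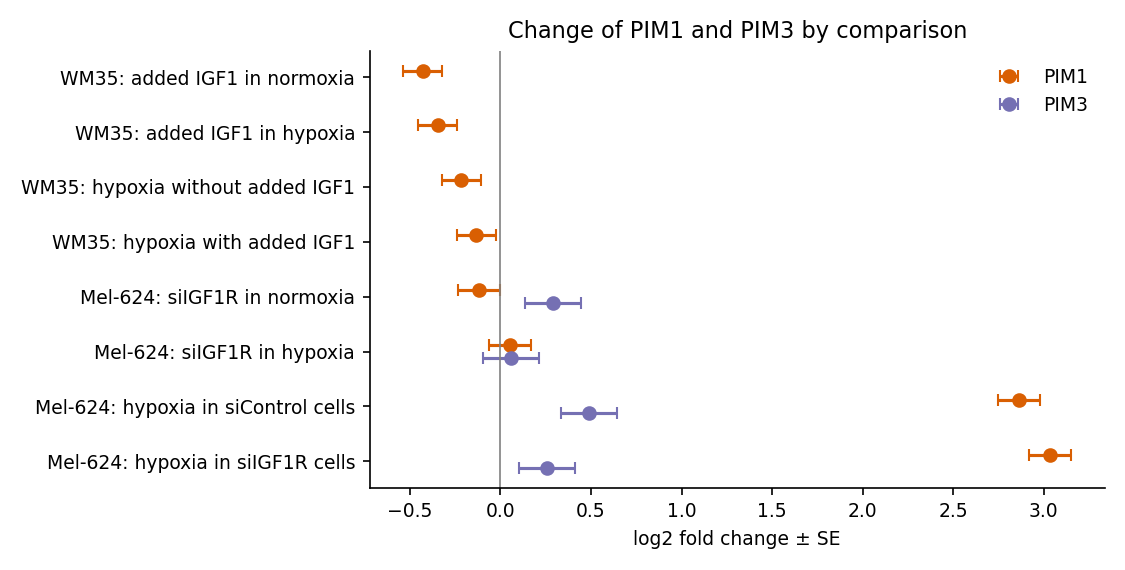
Log2 fold change of PIM1 (orange) and PIM3 (purple) in the 8 comparisons between 2 groups of 3 arrays, with ± SE bars. The hypoxia changes of PIM1 in Mel-624, at 2.87 and 3.04, stand apart from its changes in the other 6 comparisons, which lie between -0.43 and 0.05, and PIM3 is drawn for Mel-624 only.

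With all 24 arrays normalized together, the 4 WM35 groups fell between the hypoxic and the normoxic Mel-624 groups in PIM1 level. The highest means were 9.89 ± 0.14 in Mel-624 hypoxia siIGF1R and 9.84 ± 0.07 in Mel-624 hypoxia siControl cells (SD, n = 3 each). WM35 followed with 8.15 ± 0.20 in normoxia control, 7.93 ± 0.04 in hypoxia control, 7.72 ± 0.12 in normoxia IGF1 and 7.58 ± 0.06 in hypoxia IGF1 cells. The lowest means were 7.0 ± 0.12 in Mel-624 normoxia siControl and 6.88 ± 0.19 in Mel-624 normoxia siIGF1R cells. Arrays of neighbouring groups in this order overlapped between the 2 hypoxic Mel-624 groups, between the 2 WM35 control groups, between the 2 WM35 IGF1 groups and between the 2 normoxic Mel-624 groups, and they did not overlap at the other 3 steps. The line, the chip, transfection and the time at the oxygen level differ together and cannot be told apart in these levels.

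The response of PIM1 to hypoxia without IGF1 or siIGF1R was 2.84 in Mel-624 siControl cells and -0.22 in WM35 control cells in that joint normalization. The difference between the lines was 3.06 ± 0.16 (SE), the 4th largest in size among the 8371 genes kept in both lines. PIM1 was called for this difference, as were 14.8% of genes in the same direction and 20.3% in the other. The lines also differed in the time in hypoxia, 3 days against 24 h, in transfection and in chip, and the part of each in the difference cannot be told apart. The hypoxia marker ADM rose in both lines, by 0.71 ± 0.09 in Mel-624 siControl cells (limma adjusted p = 2.97e-05) and by 1.62 ± 0.08 in WM35 control cells (limma adjusted p = 5.12e-08).

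**Figure D4:**
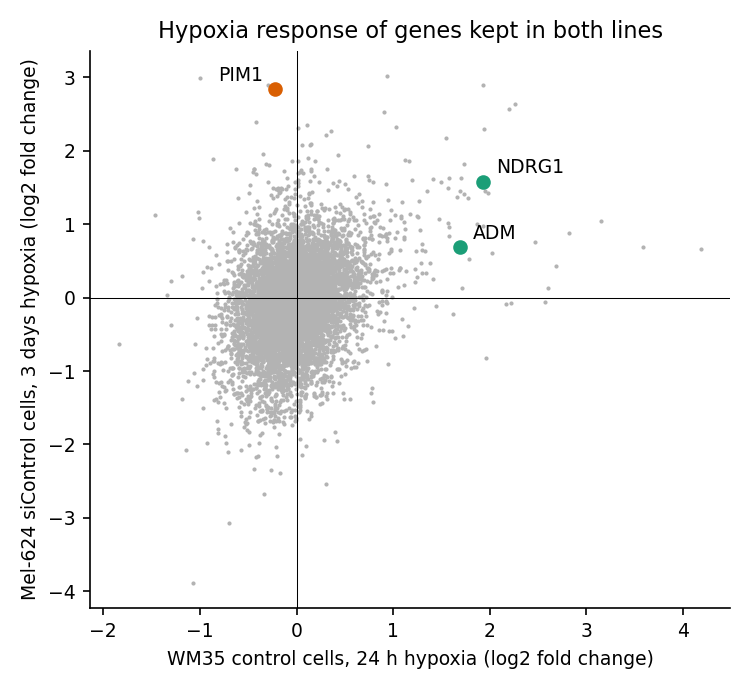
Hypoxia response (log2 fold change) of the 8371 genes kept in both lines, in WM35 control cells after 24 h (horizontal) and in Mel-624 siControl cells after 3 days (vertical), with all arrays normalized together. Each grey point is a gene, PIM1 is orange, and ADM and NDRG1 are green. PIM1 lies at 2.84 on the Mel-624 axis and -0.22 on the WM35 axis, whereas ADM and NDRG1 are above 0 on both.

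Genes around the PIM kinases were read from 5 lists, and for each the count of called genes and the median log2 change over its tested genes are given beside the same for all genes. These lists were written with earlier results of these data known, and no test of a list was made. Genes given below with an adjusted p kept their call in all alternatives of that comparison. In Mel-624 hypoxia with siControl, 23.2% of all genes were called higher and 28.4% lower, and the median over all genes was -0.03.

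Upstream of PIM1, among 14 tested cytokine receptors, JAK kinases and STAT factors, 2 rose and 3 fell in hypoxic Mel-624 siControl cells, with a median of 0.06. STAT3, a factor that switches on PIM1 transcription in many cells, rose by 0.52 ± 0.12 (limma adjusted p = 0.00221). The interferon receptor subunit gene IFNAR1 fell by 0.76 ± 0.14 (limma adjusted p = 0.000714), and STAT6 fell by 0.69 ± 0.13 (limma adjusted p = 0.000563). Of 13 STAT feedback and target genes, 6 rose and 5 fell, with a median of 0.10. BCL6, a transcriptional repressor, rose by 1.51 ± 0.10 (limma adjusted p = 1e-07). SOCS4, a gene of the SOCS feedback family, fell by 2.18 ± 0.17 (limma adjusted p = 4.15e-07), and the interferon regulatory factor gene IRF1 fell by 1.21 ± 0.15 (limma adjusted p = 2.61e-05). Genes on this list thus moved both ways while PIM1 rose.

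Among 20 tested genes for reported PIM substrates, 7 rose and 4 fell in the same comparison, with a median of 0.07. The cell cycle inhibitor CDKN1B rose by 0.93 ± 0.13 (limma adjusted p = 4.68e-05) and the transcription factor gene FOXO3 by 0.91 ± 0.13 (limma adjusted p = 5.88e-05). CDC25A, a phosphatase that drives entry into S phase, fell by 3.09 ± 0.11 (limma adjusted p = 3.22e-09). The array reads mRNA, so these values say nothing of phosphorylation.

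Of 6 tested genes for PIM protein turnover, 1 rose and 2 fell, with a median of 0.05. The stress-induced HSP70 chaperone gene HSPA1B rose by 0.78 ± 0.12 (limma adjusted p = 0.000184), and the constitutive chaperone gene HSPA8 fell by 0.65 ± 0.09 (limma adjusted p = 4.51e-05). HSPA1B is nearly identical in sequence to HSPA1A, so its probe may not keep them apart. The turnover counts here and below still take them as separate genes. The HSPA1A value was 0.23 ± 0.15 and was not called. Of 9 tested genes for kinases that share PIM substrates, 1 rose and 5 fell, with a median of -0.49. SGK1, a kinase related to AKT, rose by 0.41 ± 0.09 (limma adjusted p = 0.00253), and the S6 kinase gene RPS6KB1 fell by 0.95 ± 0.14 (limma adjusted p = 0.000128). PIM1 therefore stood above every tested gene of the 5 lists in this comparison, as a description of these values.

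**Figure D5:**
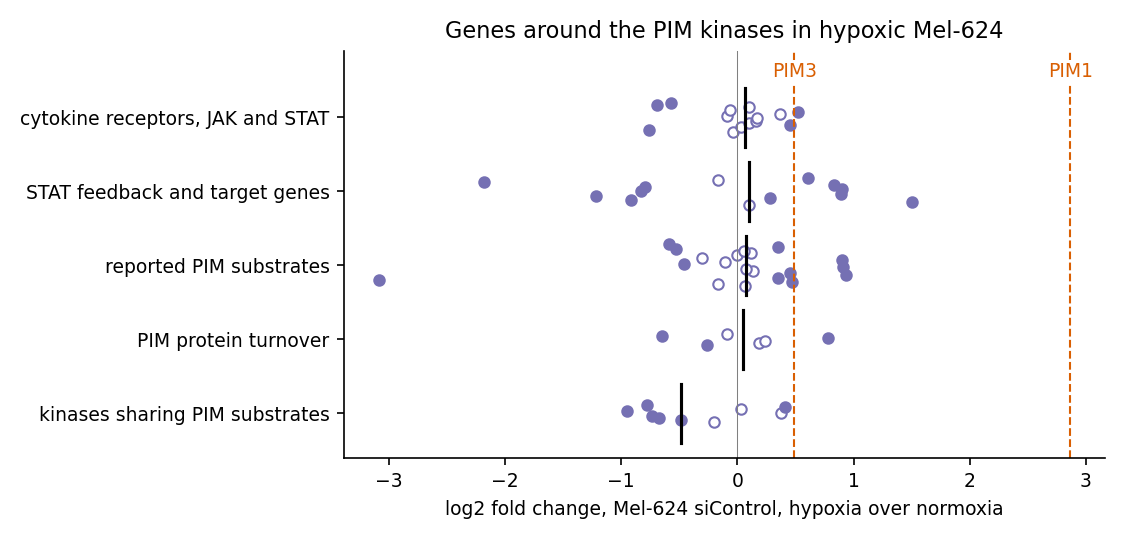
Log2 fold change in Mel-624 siControl cells, hypoxia over normoxia, of the tested genes of the 5 lists around the PIM kinases. Each point is a gene, filled where called and open where not, black bars are list medians, and dashed lines are PIM1 and PIM3. PIM1 at 2.87 lies to the right of all points, the medians of 4 lists lie between 0.05 and 0.10, and that of the kinases sharing PIM substrates is -0.49.

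With siIGF1R in place of siControl, hypoxia left 22.7% of all genes called higher and 27.3% lower, with a median of -0.01. Of the 14 receptor, JAK and STAT genes 3 were higher and 4 lower (median 0.10), and of the 13 STAT targets 3 were higher and 4 lower (median 0.01). Of the 20 substrates 6 were higher and 4 lower (median 0.02), of the 6 turnover genes 0 were higher and 4 lower (median -0.43), and of the 9 kinases 0 were higher and 5 lower (median -0.49). STAT3 rose by 0.74 ± 0.12 there as well (limma adjusted p = 0.000176). From the same list IFNAR1 fell by 1.25 ± 0.14 (limma adjusted p = 1.46e-05) and STAT6 by 0.59 ± 0.13 (limma adjusted p = 0.00183). CDC25A fell by 2.66 ± 0.11 (limma adjusted p = 1.15e-08).

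For siIGF1R itself in hypoxia, where PIM1 was not called, 13.1% of all genes were called higher and 12.7% lower, with a median of 0.02. Of the 14 receptor, JAK and STAT genes 3 were higher and 1 lower (median 0.08), of the 13 STAT targets 5 and 2 (median 0.13), and of the 20 substrates 2 and 3 (median 0.02). Of the 6 turnover genes 0 were higher and 3 lower (median -0.20), among them HSPA1B, which fell by 1.52 ± 0.12 (limma adjusted p = 8.89e-06). HSPA1A fell by 1.16 ± 0.15 (limma adjusted p = 0.000158), and these may not be separate falls. Of the 9 kinases limma called 0, and 0 had an unadjusted p below 0.05 (median -0.0019). IL6ST, the shared receptor subunit of the IL-6 family, rose with siIGF1R by 0.72 ± 0.12 in hypoxia (limma adjusted p = 0.00116). The STAT target CEBPD, a transcription factor gene, rose by 0.58 ± 0.09 (limma adjusted p = 0.000541). MYC, which is on the lists of both STAT targets and reported PIM substrates, fell by 0.52 ± 0.11 (limma adjusted p = 0.00531).

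For siIGF1R in normoxia 8.49% of all genes were called higher and 7.47% lower, with a median of 0.00083. Of the 14 receptor, JAK and STAT genes 3 were higher and 1 lower (median 0.14), of the 13 STAT targets 3 and 0 (median 0.25), and of the 20 substrates 3 and 2 (median 0.05). Of the 6 turnover genes limma called 0, with 2 at an unadjusted p below 0.05 (median -0.00051), and of the 9 kinases 1 was higher and 0 lower (median 0.10). IL6ST rose by 0.59 ± 0.12 (limma adjusted p = 0.0074) and CEBPD by 0.71 ± 0.09 (limma adjusted p = 0.000369).

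In WM35, hypoxia without IGF1 left 9.98% of all genes called higher and 10.7% lower, with a median of -0.03. Of the 16 tested receptor, JAK and STAT genes 2 were higher and 1 lower (median 0.04), of the 11 STAT targets 2 and 1 (median -0.16), and of the 22 substrates 0 and 2 (median 0.14). Of the 6 turnover genes 0 were higher and 5 lower (median -0.55), and of the 9 kinases 0 were higher and 3 lower (median -0.34). The erythropoietin receptor gene EPOR rose by 0.69 ± 0.10 (limma adjusted p = 0.00034). The cyclin D1 gene CCND1 fell by 0.94 ± 0.13 (limma adjusted p = 0.000327) and SGK1 by 0.92 ± 0.10 (limma adjusted p = 6.62e-05). HSP90AA1, which encodes a form of the HSP90 chaperone, fell by 0.77 ± 0.11 (limma adjusted p = 0.000531). HSP90AB1, which encodes another form, changed by -0.06 ± 0.10 and was not called.

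For WM35 hypoxia with IGF1 present 8.19% of all genes were called higher and 7.36% lower, with a median of -0.02. Of the receptor, JAK and STAT genes 2 were higher and 1 lower (median 0.05), of the STAT targets 2 and 2 (median -0.06), and of the substrates 0 and 1 (median 0.06). Of the turnover genes 0 were higher and 5 lower (median -0.36), and of the kinases 0 were higher and 3 lower (median -0.05). EPOR rose there by 0.76 ± 0.10 (limma adjusted p = 0.000197).

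Added IGF1 averaged over both oxygen levels, the comparison in which PIM1 was called lower, left 7.57% of all genes called higher and 7.93% lower, with a median of -0.0026. Of the 16 receptor, JAK and STAT genes 0 were higher and 1 lower (median -0.11), of the 11 STAT targets 0 and 1 (median -0.07), and of the 22 substrates 3 and 4 (median -0.12). Of the 6 turnover genes 4 were higher and 0 lower (median 0.39), and of the 9 kinases limma called 0, with 1 at an unadjusted p below 0.05 (median -0.06). BCL6 fell by 0.32 ± 0.07 (limma adjusted p = 0.0108) and CDC25A rose by 0.56 ± 0.08 (limma adjusted p = 0.00107). The HSP70 genes HSPA1B and HSPA1A rose by 1.46 ± 0.06 and by 1.15 ± 0.15 (limma adjusted p-values 5.2e-08 and 0.000699). Their probes may not keep them apart, so these may not be separate rises.

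At the single oxygen levels, IGF1 in hypoxia left 4.5% of all genes called higher and 4.56% lower, with a median of 0.0020. The receptor, JAK and STAT genes gave 0 higher and 1 lower (median -0.02), the STAT targets 0 and 1 (median -0.05), the substrates 2 and 2 (median -0.10) and the turnover genes 4 and 0 (median 0.49). Of the kinases limma called 0, and 0 had an unadjusted p below 0.05 (median 0.02). IGF1 in normoxia left 0.69% of all genes called higher and 0.888% lower, with a median of -0.0034. There the substrates gave 0 higher and 1 lower (median -0.08) and the turnover genes 2 and 0 (median 0.32). Limma called 0 genes of the other 3 lists, with 2 receptor, JAK and STAT genes (median -0.09), 1 STAT target (median -0.07) and 1 kinase (median -0.10) at an unadjusted p below 0.05.

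The genes whose log2 values followed a member most closely over the 12 arrays of a line are given with Pearson's r as a description. For PIM1 in Mel-624 they were SLC71A2 (r = 0.995), TPPP3 (0.993), SSBP3 (0.992), EYA3 (0.991) and PPP1R15A (0.991), against a median r of -0.05 over all genes. PPP1R15A is a stress-induced phosphatase subunit that acts on the translation factor eIF2. The hypoxic and normoxic arrays form 2 separate sets in PIM1, so a gene with a like step between them scores high whatever it does within them. In hypoxic siControl cells these 5 genes changed by 1.24, 2.21, 1.19, 1.78 and 1.73 on the log2 scale, in the order named, each less than PIM1.

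For PIM3 in Mel-624 the closest genes were HNRNPA3 (r = 0.915), ITGB2 (0.905), CNPY3 (0.901), FBXO38 (0.900) and CTSD (0.894), against a median r of -0.06. PIM3 and PIM1 correlated at r = 0.667 over the same 12 arrays, which share their hybridisation and the hypoxia step. For PIM1 in WM35 the closest were CDC25C (r = 0.924), RGS12 (0.917), ERCC1 (0.905), ERBB2 (0.902) and LOXL4 (0.902), against a median r of 0.02. CDC25C, a mitotic phosphatase, is itself on the list of reported PIM substrates, which was written with earlier results known. It also changed with IGF1 averaged over both oxygen levels, by -0.44 ± 0.08, so a step shared with PIM1 enters this r. A link between these genes was not tested. None of the 5 genes closest to PIM1 in one line was among the 5 closest in the other.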

How the data were processed

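Signals were measured on Illumina BeadChips in 24 samples, 3 in each of 8 groups. Per the file headers, the deposited values are probe signal intensities that were not normalized across arrays, each with a detection p-value. GenomeStudio was used, per the submitters' processing notes, with no version given here. Another deposited table gives normalized intensity for 38221 probes, with the method not stated. After log2 its array medians were 4.80 to 4.90, and it served as an alternative only.

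The neqc function of limma 3.58.1 (R 4.3.3, offset 16) was run on each line for background correction, quantile normalization and log2 transformation, with data.table (version 1.17.8), Python 3.11.15 and matplotlib 3.10.9. Of 47231 probes, 27003 had 1 gene symbol, 4 had several and 20224 had none. Gene identifiers gave current symbols for 26969 of the probes with 1 symbol, and 34 stayed under an older symbol. Probes with a detection p below 0.01 on at least 3 of a line's 12 arrays were kept, and the brightest kept probe stood for its gene. The genes tested were 9569 for WM35 and 9292 for Mel-624. The number of arrays limits the precision.

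The groups of a line were fitted together with lmFit and eBayes, and calls were made at p below 0.05 after Benjamini-Hochberg adjustment across the genes of that line. The fit was tested on simulated data. The members and the 5 lists (cytokine receptors, JAK and STAT; STAT feedback and target genes; reported PIM substrates; PIM protein turnover; kinases sharing PIM substrates) were chosen with earlier results of these data known. The genes named were the members, IGF1R, ADM and NDRG1, per list and comparison up to 2 called genes with the largest rise and up to 2 with the largest fall, and the 5 genes most correlated with each member. Of the list genes this rule names, the report gives values for some of those called under all settings tried, picked with their values known. Values of HSP90AB1 in WM35 hypoxia and of HSPA1A in Mel-624 hypoxia, neither called, are given beside those of HSP90AA1 and HSPA1B. The alternatives were the background correction, offset, normalization, detection filter, probe choice, replicate letter as a block, samples in the fit, and leaving out arrays. Chips were not used as a block, since each line has its own.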

Additional observations from a re-analysis of the deposited data

Results flagged for a closer look

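The hypoxia response of PIM1 without IGF1 or siIGF1R was 3.06 higher on the log2 scale in Mel-624 siControl cells than in WM35 control cells, in a fit to all 24 arrays normalized together (SE 0.16). The difference between the lines itself was fitted, and it was picked out because the same change of oxygen went with a rise in one line and not in the other. Line, chip, time in hypoxia and transfection differ together between these groups and cannot be told apart.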

How the results depend on the processing

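PIM1 was called for hypoxia in Mel-624, with siIGF1R and with siControl, under all 21 alternatives of each. Hypoxia with siIGF1R gave 3.21 without further background correction, 2.73 with offset 50 and 3.19 with the deposited normalized values, and hypoxia with siControl gave 3.02 without background correction and 2.59 with offset 50. The difference between the lines was 3.23 without background correction, 3.20 with the deposited values and 2.74 with offset 50. Leaving out single arrays gave PIM1 2.95 to 3.13 for hypoxia with siIGF1R, 2.80 to 2.92 with siControl and 2.98 to 3.17 for the difference between the lines. For PIM3, hypoxia with siControl gave 0.71 without background correction and 0.28 to 0.65 with single arrays left out. With the deposited values, siIGF1R in hypoxia gave 0.33 for PIM3 and the difference of the siIGF1R changes 0.0273. PIM1 with IGF1 in WM35 normoxia was called with offset 50 (-0.38) and with detection required on all 12 arrays (-0.43), and in hypoxia also with that filter (-0.35). The causes of these shifts were not tested.

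Same-lettered arrays deviated together in 8 of 18 pairs in WM35 and 5 of 18 in Mel-624 (correlation over 0.1). The median correlation was 0.07 for same-lettered pairs against -0.03 for other pairs of arrays from different groups in WM35. In Mel-624 it was 0.05 against -0.02. The main fit did not take the letters as pairing the samples, and some pairing by letter remains possible. With the replicate block, PIM1 changed by 2.87 with an SE of 0.12 for hypoxia with siControl, and no call of a member changed.

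Counts of called genes moved more. For IGF1 in WM35 normoxia the count was 151, and it became 93 without background correction, 273 with offset 50, 249 with detection on all 12 arrays, 90 without a detection filter, 87 with the replicate block, 31 with only the arrays compared, and 26 to 194 with single arrays left out. For IGF1 in hypoxia it was 867, against 436 with only the arrays compared and 361 to 862 with single arrays left out. For hypoxia with IGF1 single arrays gave 904 to 1657. For the difference of the IGF1 changes it was 5, against 8 with the deposited values, 9 with offset 50, 2 with the replicate block and 0 without both arrays that stood apart, and 0 to 8 with single arrays left out. In the 9 limma fits that gave 0, 697 to 932 genes had an unadjusted p below 0.05. For siIGF1R in normoxia single arrays gave 886 to 1567 calls. For the difference of the siIGF1R changes the count was 76, against 36 without background correction, 144 with offset 50, 136 with detection on all 12 arrays, 32 without a filter, and 21 to 64 with single arrays left out. Of 133 calls of other named genes, 91 were kept under all alternatives. Taking the mean of the kept probes reversed SOCS3 with siIGF1R in normoxia to -0.0186 and RPS6KA2 with hypoxia in siIGF1R cells to 0.14.

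PIM3 was detected on 10 of 12 Mel-624 arrays and 1 of 12 WM35 arrays, and 1 probe per member leaves no second reading.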
